A study of Caenorhabditis elegans with 15 samples.

Results

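The 10 arrays of *Caenorhabditis elegans* exposed to sediment of the rivers Elbe and Rhine were taken as a single group and compared with the 5 arrays of worms exposed to Danube sediment. All 15 arrays of the study entered the comparison, and every array was chosen by its labelled river alone. All worms were wild-type N2 (Bristol), entered the test as L4 larvae and young adults, and were kept for 48 h in the sediment of their river with *E. coli* as food. The study selected the Danube site for low, the Rhine site for moderate and the Elbe site for high contamination, and used the Danube sediment as its reference. The pooled comparison therefore asks which transcripts differ between worms from the low-contamination sediment and worms from both of the others. Each replicate was a separate exposure pooled over many vials. The subsamples of a river were combined before use, so the replicates repeat a single sediment sample per river. The p-values below thus measure the spread between exposures, not between sediment samples. Whole animals were extracted, so fewer cells of a type and less RNA per cell cannot be told apart.

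Worms in sediment eat and move through the material, and contact it through the gut and through the cuticle, a collagen coat made by the skin cells. Their known responses to foreign compounds and metals run through detoxification enzymes, metallothioneins and chaperones, and their responses to sediment bacteria through lectins, lysozymes and other secreted proteins. Large gene families with MATH and F-box domains, whose products are linked to the ubiquitin ligases that mark proteins for the proteasome, have expanded in nematodes. An adult hermaphrodite also carries sperm, oocytes, yolk and embryos, so a shift in stage or brood can move germ line and embryonic transcripts in whole-worm RNA.

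On each array, cDNA of the sediment-exposed worms carried Cy5, and a reference pooled from RNA of all sediment-exposed worms and a laboratory control carried Cy3. Values are log2 ratios of sample to reference after print-tip loess, in which a value of 0 means equal signal of both, and differences are the mean of the 10 Elbe and Rhine arrays minus the mean of the 5 Danube arrays on this scale. Testing required that the image software graded a spot of the gene better than its lowest grade on 3 or more of the 5 arrays for every river, and 5347 of 19084 gene names met this. The median Cy5 signal was 1322 to 1622 on the Danube arrays and 1433 to 1984 on the other 10, the median Cy3 signal was 686.8 to 1053 and 804.1 to 1586, and the lowest grade went to 52.1 to 61.6% and 45.7 to 55.5% of the gene spots. Danube replicates 1 to 4 lay on slides with lower numbers, whereas Danube replicate 5 shared the higher-numbered slides with the other rivers. A fit that takes the slide series as a block, called the slide-blocked fit below, therefore compares the 10 arrays with Danube replicate 5 alone and has no replicate check on the Danube side. For Danube replicates 1 to 4, slide series and river cannot be told apart. Danube replicate 2 and Rhine replicate 1 had the widest spread of log2 ratios, 1.11 and 1.16 (SD over genes), against 0.551 to 0.931 on the other 13 arrays.

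The genes with the smallest p were *math-26* and *piit-1*, both higher in Elbe and Rhine worms, and C17F4.7, which was lower, but no gene passed the test after adjustment. Of 5347 genes tested with limma and Benjamini-Hochberg adjustment, 0 had an adjusted p under 0.05 in either direction (0% higher, 0% lower), and the smallest adjusted p was 0.125. The methods' t-test with the same adjustment called 1 gene. At an unadjusted p under 0.05 by limma there were 420 genes, where 267.4 are expected by chance. With 1 array left out at a time, this count ran from 287 (without Danube replicate 2) to 505 (without Danube replicate 5). The study's methods set thresholds on fold change (1.4 or more, or 0.7 or less) together with an unadjusted p below 0.05. They were passed by 341 genes that were higher in Elbe and Rhine worms (6.38% of those tested) and by 62 that were lower (1.16%). Thus 84.6% of these genes were higher. This share depended on the processing: it was 94.7% with arrays centred on their median without loess, 69.2% in the deposited value table, 66.3% with array quality weights and 46.6% in the slide-blocked fit. The median difference over all tested genes was itself 0.16, and 66.5% of all tested genes had a positive difference. That median was 0.53 with median centring, but 0.09 without Danube replicate 2, 0.08 in the slide-blocked fit, 0.07 in the value table and 0.06 with array weights. The excess of higher genes is thus read against a general offset in that direction.

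In 13 genes the 10 arrays did not overlap the 5 Danube arrays at all. In 11 of them (0.206% of the genes tested) every Elbe and Rhine array lay above every Danube array, and in 2 (0.0374%) every array lay below. The higher genes were *math-26*, *piit-1*, *ets-9*, *far-7*, F26H11.4, *nssp-86*, *egg-3*, *sqst-1*, *enol-1*, T08G3.6 and *col-20*, and the lower genes were C17F4.7 and M01D1.4. Of these, *nssp-86*, *sqst-1* and *enol-1* are named only because they complete this group. All but *col-20*, whose difference of 0.48 fell just short of the fold threshold, also passed the thresholds.

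**Figure D1:**
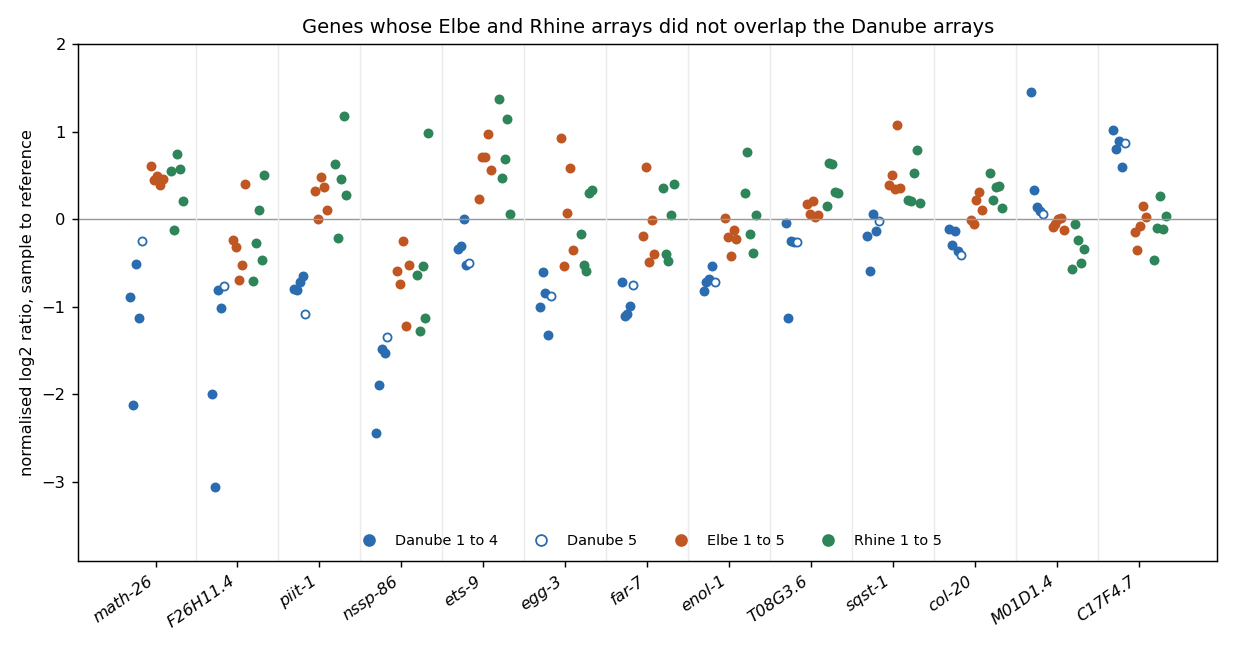
Normalised log2 ratio of sample to reference (vertical axis) on each of the 15 arrays, for the 13 genes whose Elbe and Rhine arrays did not overlap the Danube arrays. Each point is an array, the open circle is Danube replicate 5, and the genes are ordered from the largest positive to the largest negative difference. *math-26* stands from -2.12 to -0.25 on the Danube arrays and from -0.12 to 0.74 on the other 10.

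*math-26* (F36H5.1), a gene of the MATH domain family, shared the smallest adjusted p with *piit-1*. Its log2 ratio in Danube replicates 1 to 5 was -0.89, -2.12, -0.51, -1.13 and -0.25, and over the 10 Elbe and Rhine arrays it ran from -0.12 through a median of 0.48 to 0.74. The Elbe arrays were almost equal, from 0.39 to 0.60, and the spread of the Danube group was wider (SD 0.72, n = 5) than that of the 10 arrays (SD 0.24, n = 10). The difference was 1.41 (SE 0.26), a 2.67-fold higher level, with an adjusted p of 0.125 by limma. The exact permutation p was 0.000333, the smallest that exchanging 15 arrays in groups of 10 and 5 can give. That p is unadjusted, and the gene was chosen from 5347 by its p on these same arrays, so it is no further evidence. Danube replicate 5 was the Danube array nearest to the other group, and in the slide-blocked fit the difference was 0.68.

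*piit-1* (F35B12.4) was the gene whose Danube arrays, including replicate 5, were most clearly set apart. The 5 Danube values were -0.80, -0.81, -0.71, -0.65 and -1.08, and the other 10 arrays ran from -0.21 through 0.35 to 1.18. The gap of 0.44 between the lowest Elbe or Rhine array and the highest Danube array was the widest among the 13 genes. The difference was 1.17 (SE 0.22, adjusted p = 0.125 by limma), the level was 2.25-fold higher, and the difference was 1.44 in the slide-blocked fit.

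C17F4.7 was the clearest gene in the opposite direction. The Danube arrays read 1.02, 0.80, 0.89, 0.60 and 0.86, and the other 10 from -0.47 through a median of -0.09 to 0.27. Both groups were narrow, with an SD of 0.15 in Danube (n = 5) and 0.22 in the 10 arrays (n = 10), and the Elbe mean of -0.08 and the Rhine mean of -0.07 were nearly equal. The difference was -0.91 (SE 0.18, adjusted p = 0.142 by limma), a 0.531-fold level, and it stayed at -0.94 in the slide-blocked fit. By the methods' t-test with Benjamini-Hochberg adjustment it was the only gene called, with an adjusted p of 0.00787.

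*ets-9*, of the ETS family of transcription factors, and *far-7*, of the family of fatty acid and retinol binding proteins, were higher by 1.02 (SE 0.23, adjusted p = 0.311 by limma) and 0.87 (SE 0.22, adjusted p = 0.412 by limma). For *ets-9* the Danube arrays read -0.34, -0.30, 0.01, -0.53 and -0.50, and the other 10 from 0.05 through 0.70 to 1.37, so the groups were separated by only 0.05. For *far-7* the Danube arrays read -0.71, -1.11, -1.09, -0.99 and -0.75, and the other 10 from -0.49 through -0.10 to 0.59. Both kept their direction in the slide-blocked fit, at 1.19 and 0.70. In the deposited value table, whose values track the Cy5 channel alone and not the ratio, the difference of *ets-9* was 0.37 and that of *far-7* was 0.61.

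The other non-overlapping genes were separated by small gaps, from 0.01 for *egg-3* to 0.13 for *sqst-1*. *egg-3*, which acts in the transition from oocyte to embryo, read -1.32 to -0.61 in Danube and -0.60 to 0.93 in the 10 arrays, and its difference of 0.93 was 0.00 in the value table. Its spot was above the lowest grade on 3 Danube arrays and on 8 of the other 10. *sqst-1*, the worm's relative of the autophagy receptor p62, read -0.60 to 0.06 and 0.19 to 1.07. *enol-1*, the glycolytic enzyme enolase, read -0.82 to -0.53 and -0.42 to 0.77. The differences were 0.64 for *sqst-1* and 0.65 for *enol-1*, and in the value table that of *enol-1* was 0.16, which no longer passed the thresholds.

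F26H11.4 and *nssp-86* had the larger differences of this group, 1.31 (SE 0.35) and 1.15 (SE 0.32). F26H11.4 read from -3.06 through -1.01 to -0.77 in Danube and -0.70 to 0.51 in the 10 arrays. Danube replicates 1 and 2 were the lowest, and the difference was 0.54 in the slide-blocked fit. T08G3.6 and the cuticle collagen *col-20* had small differences and little spread, with differences of 0.64 and 0.48 and SDs over the 10 arrays of 0.23 and 0.18. In the value table T08G3.6 had a difference of 0.17, which no longer passed, and *col-20* had the opposite sign, -0.02. M01D1.4, the other lower gene, had a difference of -0.61, but Danube replicate 1 alone, at 1.45, stood far above the other Danube arrays at 0.06 to 0.34, and the sign turned to 0.15 when arrays were centred on the median without loess.

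*fbxa-99*, an F-box gene, followed in order of p without full separation. Its Danube arrays read -0.29, -0.67, 0.12, -0.08 and -0.29, and the other 10 from 0.09 through 0.98 to 1.56, so the lowest array, Rhine replicate 5, lay only just under Danube replicate 3. The difference was 1.18 (SE 0.25, adjusted p = 0.238 by limma), and 1.22 in the slide-blocked fit. In the value table it was 0.59, which no longer passed the thresholds. Another F-box gene, *fbxb-58*, had a larger difference of 1.82 (SE 0.46), but its Danube values spread from -4.42 to -0.89 and the difference was 0.31 in the slide-blocked fit.

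*clpr-1* had the largest difference among the higher genes named by p, 2.83 (SE 0.65, adjusted p = 0.411 by limma), a 7.09-fold level. The Danube arrays read 1.45, 2.10, 3.77, 1.26 and 1.61, and the other 10 from 2.17 through 4.80 to 7.13, with only Rhine replicates 1 and 3 inside the Danube range. Its Cy3 signal was weak, with a median of 241.1 on the Danube arrays and 415.7 on the others. The Cy5 signal itself had a median of 3001 and 21380, and the difference in the value table was 2.47. The infection response gene *irg-1* had the largest difference of the named genes, 3.65 (SE 0.96, adjusted p = 0.424 by limma), and also the widest spread. It read -0.33, -5.75, -2.16, -1.34 and -1.37 in Danube and -1.36 through 1.00 to 5.29 in the 10 arrays. Its spot was above the lowest grade on 3 Danube arrays and on 6 of the other 10, and the mean was 0.50 in Elbe and 2.42 in Rhine. Elbe replicate 1 alone of the 10 lay below a Danube array.

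The C-type lectin *clec-16*, the cuticle collagen *col-129*, and F57G12.2, Y57G11C.14 and F25E5.8 completed the higher genes. Their differences were 1.81, 1.15, 1.43, 1.58 and 1.06, and all had an adjusted p of 0.411 or 0.412 by limma. *clec-16*, which is annotated as a pseudogene, read -3.05 to 0.03 in Danube, where replicate 5 was the highest. In the 10 arrays it read -0.88 through 0.09 to 1.01. Danube replicate 5 thus lay inside the other group, and the difference of *clec-16* was 0.11 in the slide-blocked fit. The same held in part for *col-129*, at 0.21, and less for F57G12.2 (1.12), Y57G11C.14 (0.91) and F25E5.8 (0.67). F25E5.8 was also the gene of this set whose rivers were furthest apart, with a mean of 0.53 in Elbe and -0.22 in Rhine against -0.90 in Danube.

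Among the lower genes the largest differences belonged to genes that Danube replicate 5 did not share. *exc-13* (difference -2.50, SE 0.68) read 0.43, 4.93, 3.85, 4.35 and 0.78 in Danube and -1.03 through 0.44 to 2.08 in the 10 arrays, so that Danube replicates 1 and 5 lay inside the other group. *npp-27* (-1.90, SE 0.51) read 3.55, 3.30, 2.60, 1.77 and 0.04 against -0.43 through 0.24 to 2.08. In the slide-blocked fit *exc-13* stood at -0.41, and *npp-27* turned to 0.32.

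The same pattern was seen for *dod-22*, a gene known as a target downstream of the insulin pathway factor DAF-16 and as an innate immunity gene, with a difference of -1.54 (SE 0.51) and -0.12 in the slide-blocked fit. The metalloprotease *zmp-5* (-0.97), the tyrosylprotein sulfotransferase *tpst-1* (-1.27), the lectin *clec-50* (-0.70) and E02H9.7 (-0.66) kept their sign, at -0.81, -0.58, -0.54 and -0.56. All of these had adjusted p-values from 0.439 to 0.578 by limma, together with the genes of the next paragraph.

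The neprilysin-like peptidase *nep-17* and the mitochondrial import protein *timm-23* were further from Danube in the slide-blocked fit than without it. *nep-17* had a difference of -0.53 (SE 0.19) and -0.89, and *timm-23* of -0.93 (SE 0.35) and -1.91. Danube replicate 5 lay at 0.56 and 2.08, among the highest Danube values. In the value table, however, *nep-17* had the opposite sign, 0.26. The tyrosine kinase gene *kin-15* had 2 probes that disagreed, with a difference of -0.87 (SE 0.32) for M176.6b and 0.05 (SE 0.23) for M176.6a, and M176.6b turned to 0.17 in the value table. No statement on *kin-15* as a gene can rest on these values.

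**Figure D2:**
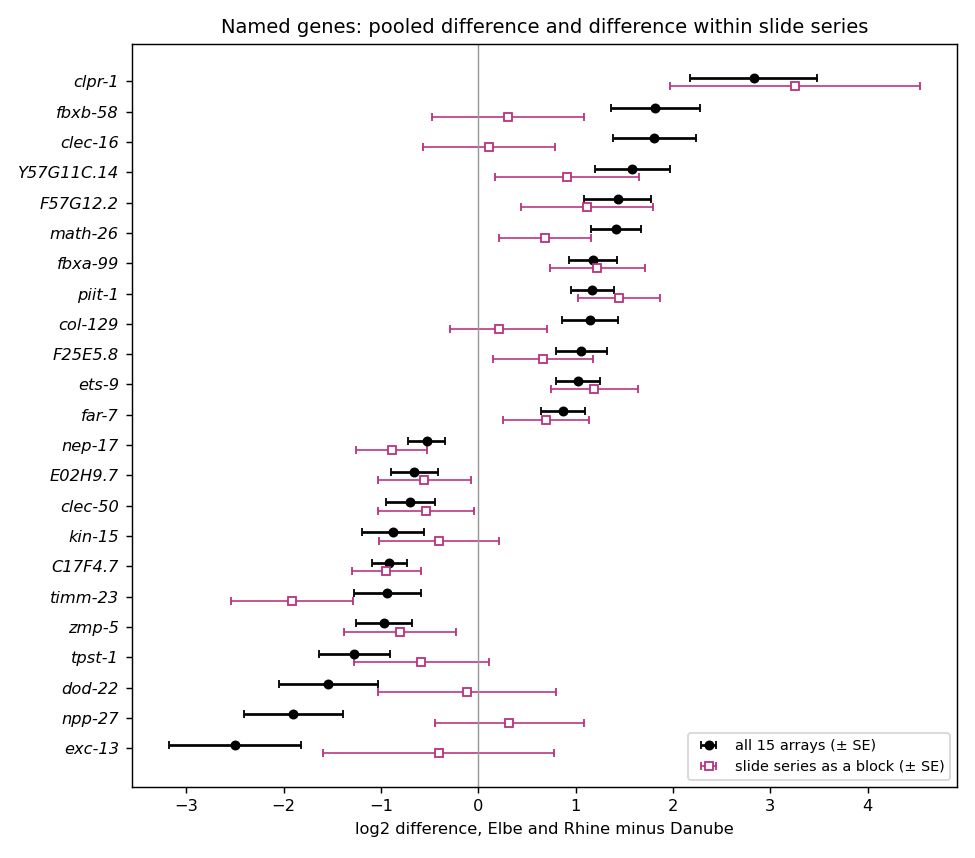
Log2 difference of the 10 Elbe and Rhine arrays minus the 5 Danube arrays (horizontal axis) for the 12 higher and 11 lower genes named by p. Black circles are the fit over all 15 arrays and open squares the slide-blocked fit, each with its SE. *piit-1*, *fbxa-99*, *ets-9*, *clpr-1* and C17F4.7 have nearly equal or larger values in both, whereas *clec-16*, *npp-27* and *exc-13* do not.

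Consistency over the 10 arrays was described for all genes past the thresholds. Because the same arrays chose these genes, the counts describe the groups and are no further evidence. Of the 341 higher genes, 239 had all 10 arrays above the Danube mean, 80 had 9, 21 had 8 and 1 had 7. Of the 62 lower genes, 32 had all 10 arrays below the Danube mean, 27 had 9 and 3 had 8. The mean of Elbe and the mean of Rhine lay on the same side of the Danube mean in all 341 and all 62. Taken by river, all 5 arrays were above that mean in 281 of the higher genes for Elbe and in 287 for Rhine.

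**Figure D3:**
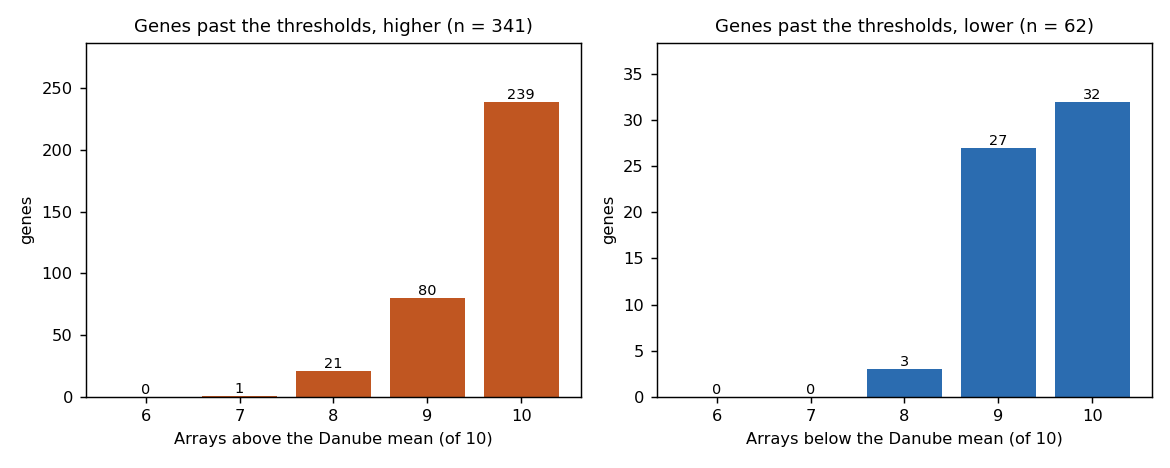
Number of genes (vertical axis) by how many of the 10 Elbe and Rhine arrays lay beyond the Danube mean (horizontal axis), for the 341 genes higher and the 62 genes lower past the thresholds. All 10 arrays lay on the same side in 239 higher and 32 lower genes.

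Exceptions were spread over the arrays, with some arrays named more often. In the 80 higher genes with 9 arrays above the Danube mean, the exception was Elbe replicate 1 in 19, Elbe replicate 3 in 15 and Rhine replicate 2 in 13, and every one of the 10 arrays was the exception at least 2 times. The 27 lower genes with 9 arrays had at most 5 exceptions on any array. Rhine worms were further from Danube than Elbe worms in 227 of the 341 higher genes and in 37 of the 62 lower genes. Beside this, the median log2 ratio over all tested genes was 0.04 to 0.27 on the Rhine arrays, -0.05 to 0.12 on the Elbe arrays and -0.24 to 0.07 on the Danube arrays. None of the genes past the thresholds had an adjusted p under 0.05 by limma for Elbe against Rhine.

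Among the genes past the thresholds, the Danube group was less uniform than the 10 arrays it was compared with. The same arrays chose these genes, and the counts below have no share over all tested genes beside them. Over all genes the widest array was Rhine replicate 1 (SD 1.16), followed by Danube replicate 2 (SD 1.11). Over the 341 higher genes the median SD was 0.69 among the Danube arrays and 0.50 among the 10, beside a median difference of 0.85, and over the 62 lower genes it was 0.63 and 0.54, beside a median absolute difference of 0.80. Danube replicate 2 was the farthest Danube array from the other group in 187 of the 341 higher genes and in 17 of the 62 lower ones. Without it, 202 genes were higher and 75 lower, and 169 of the 341 still passed the thresholds. Danube replicate 5, the only Danube array in the slide series of the others, was the farthest in 13 and the nearest in 90 of the 341. It lay inside the range of the 10 Elbe and Rhine arrays for 230 of the higher and 40 of the lower genes, and outside on the Danube side for 110 and 21.

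In the slide-blocked fit, 316 of the 341 higher and 56 of the 62 lower genes kept their sign, but 15 and 8 of them still passed the thresholds. Over all genes that fit called 41 higher and 47 lower. In contrast, leaving out any array other than Danube replicate 2 left between 281 and 422 higher genes and between 51 and 79 lower genes. When both arrays of widest spread were left out, an alternative chosen after seeing the data, 194 genes were higher and 90 lower.

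**Figure D4:**
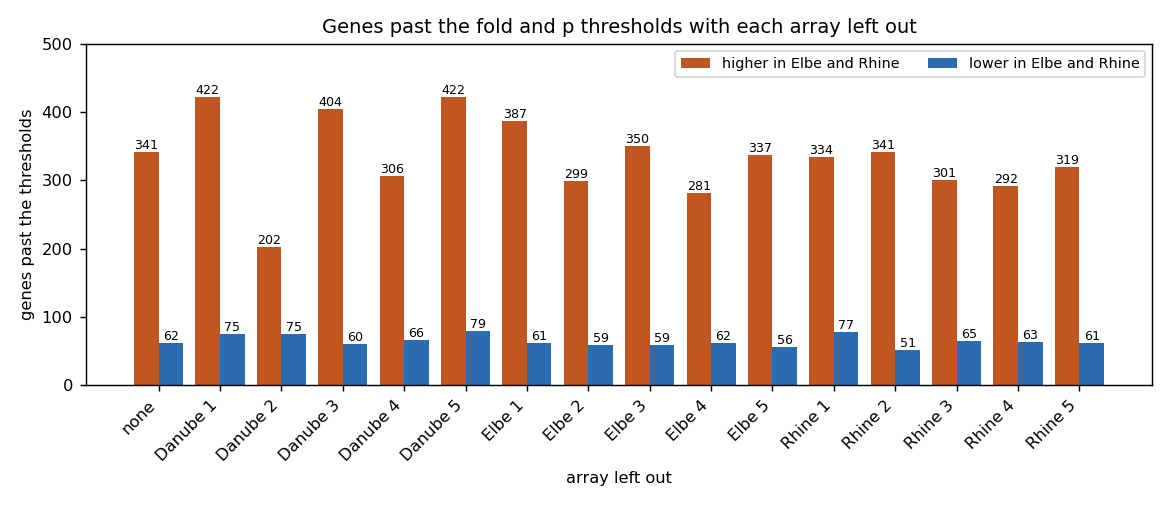
Number of genes past the fold and p thresholds (vertical axis), higher and lower in Elbe and Rhine worms, with all 15 arrays and with each array left out in turn (horizontal axis). The count of higher genes is lowest, at 202, without Danube replicate 2, and highest, at 422, without Danube replicate 1 or 5.

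Of the 341 higher genes, 106 (31.1%) passed the thresholds with every array left out in turn, and of the 62 lower genes 9 (14.5%) did. Only 6 higher genes and 1 lower gene also passed in the slide-blocked fit and in the value table. The lower gene was C17F4.7, and the higher ones were *piit-1*, *clpr-1*, *rars-1*, F21C10.10, R11A5.3 and K01A2.5, of which the last 4 are named because they passed all of these, after their values were seen. *rars-1*, the cytosolic arginyl-tRNA synthetase, read -0.38, -0.67, -0.74, -0.06 and -1.06 in Danube and -0.34 through 0.17 to 0.91 in the 10 arrays, a difference of 0.81 (SE 0.25, adjusted p = 0.492 by limma). In *rars-1*, *piit-1*, F21C10.10 and R11A5.3, Danube replicate 5 was the lowest Danube array. F21C10.10, R11A5.3 and K01A2.5 had differences of 1.14, 1.07 and 0.89, and 9, 7 and 6 of their 10 arrays lay above all Danube arrays. The spot of K01A2.5 was above the lowest grade on 3 Danube arrays and on 7 of the other 10.

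By function, cuticle collagens, the structural proteins of the body coat, were higher in part. Of 160 collagen genes on the array 62 were tested, 14 were higher (22.6%, beside 6.38% of all genes) and 0 lower. Their median difference was 0.37, against 0.16 over all genes. Of the members described here, *col-19*, *col-119* and *dpy-13* were picked after their values were seen. The adult cuticle collagens *col-19* (0.68), *col-119* (0.70) and *col-124* (0.91) were among them, as were *sqt-3* (1.64) and *dpy-13* (0.90), which shape the body. On the Danube arrays the group's median log2 ratio was -0.05, -0.46, 0.01, -0.14 and -0.05. On the other 10 it ran from 0.02 through 0.14 to 0.42, so the 2 groups of arrays did not overlap by a narrow margin. Relative to each array's median over all tested genes they were not separated. The collagen and all-gene medians were 0.01 and 0.07 on Danube replicate 3, 0.02 and 0.10 on Elbe replicate 2, and 0.03 and 0.10 on Rhine replicate 5.

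Without Danube replicate 2, 10 collagens were higher and 2 lower, and in the slide-blocked fit 2 were higher and 0 lower, with a median difference of 0.17. *sqt-3* read -0.58, -0.88, -1.06, -1.42 and -0.20 in Danube and -0.71 through 0.53 to 3.50 in the 10 arrays. Its highest value came from Elbe replicate 4, and its spread over the 10 arrays (SD 1.28) was the largest of the collagens described here. The *sqt-3* spot was above the lowest grade on 3 Danube arrays and on 7 of the other 10. *col-124* read -0.27, -1.29, -0.68, -1.46 and -0.63 in Danube and -0.50 through 0.01 to 0.69 in the 10.

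Genes of protein quality control were higher in part. Of 22 proteasome genes tested, 5 were higher (22.7%, beside 6.38% of all genes) and 0 lower, with a median difference of 0.36, and of 27 heat shock proteins and chaperones 4 were higher (14.8%) and 0 lower, with a median difference of 0.42. *rpn-11* (0.80), the deubiquitinating subunit of the proteasome lid, read 0.15, -1.96, -0.31, -0.54 and 0.18 in Danube and -0.03 through 0.32 to 0.67 in the 10 arrays, with Danube replicate 2 far below the rest. *rpn-10*, a ubiquitin receptor of the proteasome, lay above the Danube mean on 8 of 10 arrays.

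Among the chaperones, *cct-1* (1.59), a subunit of the chaperonin that folds actin and tubulin, again had Danube replicate 2 far below the others, at -4.43, and its difference was 0.81 without that array. The small heat shock gene *hsp-12.1* (0.77) read -0.90 to -0.23 in Danube and -0.53 through 0.16 to 0.97 in the 10 arrays. Without Danube replicate 2, 2 proteasome genes (9.09%) and 3 chaperone genes (11.1%) were higher, beside 3.78% of all genes, and the chaperone median was 0.22. In the slide-blocked fit the median differences of both groups were 0.20 and 0.04.

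Of 50 oxidative phosphorylation genes, 5 were higher (10%, beside 6.38% of all genes) and 0 lower, with a median difference of 0.25, or 0.15 without Danube replicate 2. *isp-1* (0.79), the iron-sulfur protein of complex III, and *cox-17* (0.62), a copper carrier for cytochrome oxidase, had all 10 arrays above the Danube mean. In the slide-blocked fit 0 genes of this group passed the thresholds, and the median difference was 0.27. Of 9 genes for trehalose, glycogen and starch enzymes, 2 were higher (22.2%) and 0 lower, with a median difference of 0.48. *phkb-1* (1.35), a subunit of the kinase that activates glycogen breakdown, had a mean of -0.65 in Elbe and 1.08 in Rhine, and the glucosidase *aagr-4* (0.83) turned to -0.24 in the slide-blocked fit. Without Danube replicate 2, 0 of the 9 passed and the median was 0.20.

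Of 76 genes for cytosolic ribosomal proteins, 3 were higher (3.95%) and 0 lower, beside 6.38% and 1.16% of all genes. Their median difference was 0.11, below the 0.16 of all genes, but this order turned in the slide-blocked fit (0.23 against 0.08), in the value table (0.15 against 0.07), with median centring (0.70 against 0.53) and, narrowly, without Danube replicate 2 (0.094 against 0.087). *rps-3* and *rpl-31* had differences of 0.63 and 0.60. Of 21 translation factors 2 were higher (9.52%), and of 27 mitochondrial ribosomal proteins 2 (7.41%), beside 6.38% of all genes. Among them, *ife-5*, a cap-binding factor of the germ line, had a difference of 1.63 in which Rhine replicate 1 alone read 5.00, whereas the other 9 arrays read at most 0.12. *eif-3.D* (0.56) and *mrps-10* (0.62) had negative differences in the value table, -0.27 and -0.25, and *mrps-10* was also at -0.06 in the slide-blocked fit.

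**Figure D5:**
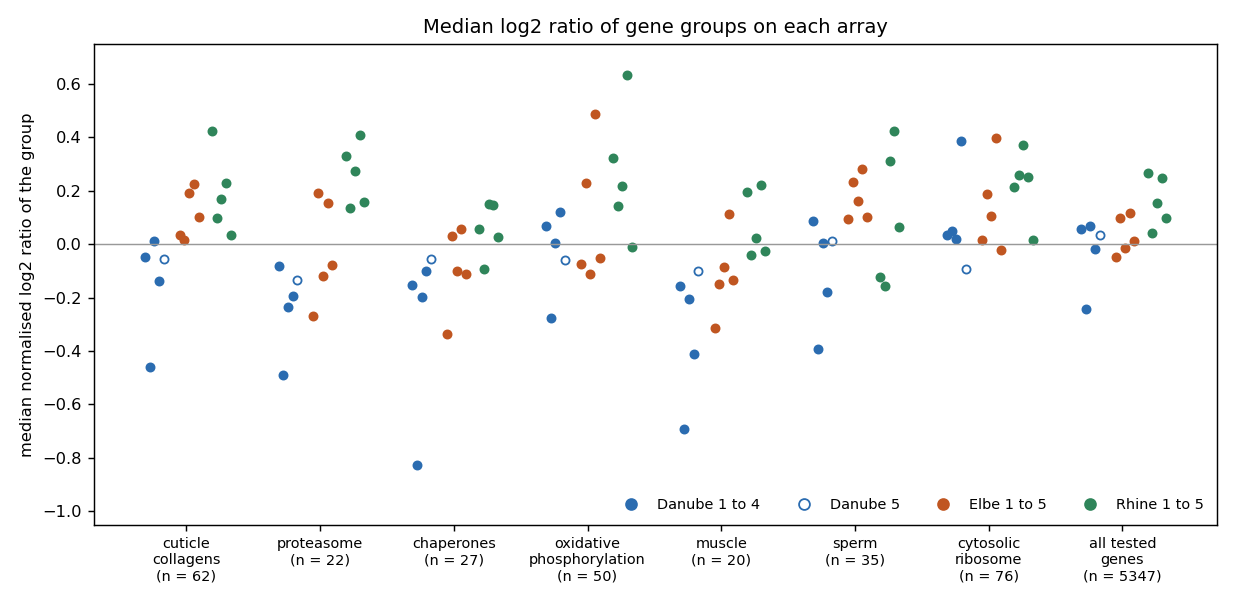
Median normalised log2 ratio (vertical axis) of 7 gene groups and of all tested genes on each of the 15 arrays. Each point is an array, with Danube replicate 5 as an open circle and the number of tested genes under each group. Danube replicate 2 is the lowest array in most groups, and in the cuticle collagens alone, of the 7 groups shown, do the Danube arrays and the other 10 not overlap. The values are not taken relative to the all-gene median of the array, and relative to it the collagens overlap as well.

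Genes for detoxification and metal handling were counted beside 6.38% higher and 1.16% lower of all genes, and lists of this size have few members past the thresholds at that share. Of 16 cytochrome P450 genes, which oxidise foreign compounds, 0 were higher and 1 was lower, namely *cyp-34A9* (-0.66), which turned to 0.07 in the slide-blocked fit. Of 30 glutathione and glucuronosyl transferases, which conjugate such compounds, 1 was higher (*ugt-50*, 0.49, but -0.17 in the value table) and 1 was lower (*ugt-60*, -0.66). Of 14 ABC transporters and of 18 antioxidant enzymes, 0 passed the thresholds in either direction. Most of the P450 and transferase genes on the array (61 of 77 P450 genes) did not meet the grade filter and were not tested.

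The metallothionein *mtl-1*, which binds cadmium and zinc and is induced by metals in the gut, was the exception among 12 metal genes tested. It read -0.51, -0.19, -0.78, -0.68 and -0.59 in Danube and -0.32 through -0.03 to 0.47 in the 10 arrays, so that only Rhine replicate 2 fell below the highest Danube array. The difference was 0.56 (SE 0.19, adjusted p = 0.536 by limma, unadjusted exact permutation p = 0.000666 for a gene named for its low p), a 1.48-fold level, with means of -0.05 in Elbe and 0.07 in Rhine. The difference was 0.60 in the slide-blocked fit. In the value table it was 0.43, which no longer passed the thresholds. The other metallothionein, *mtl-2*, had a difference of 0.52 (SE 0.26), which did not pass the thresholds and is given for comparison, after its value was seen.

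Genes of the response to bacteria were mixed. Of 65 C-type lectins, 3 (4.62%) lay above Danube past the thresholds and 2 lay below, beside 6.38% and 1.16% of all genes. Without Danube replicate 2, 7 lay above (10.8%, beside 3.78% of all genes) and 2 below. Besides *clec-16*, *clec-52* (1.77) was higher, with Danube values from -3.70 to -0.29. Of 37 lysozymes, saposin-like proteins and antimicrobial peptides, 4 were higher and 0 lower, all 4 of the saposin-like family, while the median of the group was -0.02. *spp-8* (1.56) read -0.69 to 0.81 in Elbe and -0.01 to 2.10 in Rhine worms, and *spp-18* (1.27) had 9 of 10 arrays above the Danube mean. Of 19 infection response genes, *irg-1* and *cebp-2* (1.24) were higher and *dod-22* was lower. Danube replicate 2 read -3.66 for *cebp-2*, and without it the difference was 0.47 and did not pass.

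Germ line and stage genes were examined because whole adults were measured. Of 35 sperm genes tested, 6 were higher (17.1%, beside 6.38% of all genes) and 0 lower, with a median difference of 0.28. That median was 0.19 without Danube replicate 2, 0.12 in the slide-blocked fit and 0.13 in the value table. Over all genes these medians were 0.09, 0.08 and 0.07. *ssp-33* (1.26) and *nspd-5* (0.74) were above the Danube mean on all 10 arrays. Members of such small sperm families are nearly identical in sequence and may share signal. Of 25 oocyte and eggshell genes, *egg-3* and the eggshell barrier gene *perm-2* (0.98) were higher (8%) and 0 were lower, and the median difference of 0.20 was -0.01 without Danube replicate 2. Of 5 yolk protein genes, *vit-2* (0.67) and *vit-3* (1.05) were higher and *vit-1*, *vit-5* and *vit-6* had differences of -0.20, 0.04 and -0.14. Without Danube replicate 2, 5 sperm genes, 2 oocyte genes and 0 yolk genes were higher.

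Markers of single tissues and of embryos gave no common direction. Of 8 intestine markers, 5 neuron markers and 6 germline markers, 0 passed the thresholds. Of 4 hypodermis markers 1 was higher (the collagen *sqt-3*), and of 12 embryo markers 1 (*cebp-2*). The group medians over the arrays overlapped, with -0.73 to 0.53 in Danube and -0.33 to 0.80 in the 10 arrays for the intestine, and -0.63 to 0.25 and -0.27 to 0.43 for embryos. The part of tissue or stage composition in the differences above was not tested.

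Of 20 muscle genes, 2 were higher (10%, beside 6.38% of all genes) and 0 lower, with a median difference of 0.42, which was 0.25 without Danube replicate 2 and 0.09 in the slide-blocked fit. The myosins *myo-2* of the pharynx and *myo-3* of the body wall had differences of 1.72 and 1.47, but Danube replicate 2 read -5.96 and -5.24 while Danube replicates 1, 3 and 5 read -0.39 to 0.01 and -0.26 to 0.48. Without that array the difference of *myo-2* was 0.65, and *myo-3* turned to -0.42 in the slide-blocked fit. The main body wall myosin *unc-54*, likewise added after its value was seen, had a difference of 0.14 (SE 0.27).

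Chemoreceptors, the largest family on the array, came close to the background, with 16 higher (5.78%) and 5 lower of 277 tested. *srx-28* (0.97) and *sre-12* (0.63) had all 10 arrays above the Danube mean. Of 51 F-box and related genes 4 were higher (7.84%) and 1 lower, and of 14 genes with MATH or BATH domains 2 were higher, *math-26* and *math-30* (0.96). For *math-30*, which is annotated as a pseudogene, Danube replicate 1 read -2.71, with the other 4 Danube arrays at 0.04 to 0.42. Of 59 nuclear hormone receptors, 2 were higher and 2 lower, among them *nhr-99* (1.16, but -0.49 in the slide-blocked fit) and *nhr-256* (-0.76).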

How the data were processed

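RNA of whole worms was hybridised to 15 spotted 2-colour arrays, 5 per river. The authors deposited, per the file headers, unnormalized spot intensities of both channels as quantified by the BlueFuse image software, together with a confidence score per spot on which its grades rest, and with no separate background. The authors also deposited a table of linear ratios to each gene's median, made after print-tip Lowess and median polishing. Its 18653 rows tracked the loess-corrected Cy5 signal of 1 spot identifier each, so the reference appears not to be divided out, and which signal was polished is not given in the sources used here.

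Of 22176 spots per array, 19806 carried gene identifiers. Control and empty spots (2370) had weight 0. Log2 ratios of Cy5 over Cy3 were normalised by loess within 48 print-tip blocks (limma 3.58.1, R 4.3.3), averaged by gene name, and filtered on the spot grade, which left out 13737 names. Elbe and Rhine arrays were compared with Danube arrays in a 2-group fit (lmFit, eBayes, Benjamini-Hochberg adjustment over 5347 genes). Single named genes were also tested by an exact two-sided permutation of arrays, without adjustment. The script was tested on simulated data. Plots were drawn with matplotlib 3.10.9. Symbols came from RefSeq names for 5079 of the tested names. Spots hold no counts, so the number of arrays limits the precision.

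In each direction, genes were named as the 12 with the lowest p among those past the thresholds with all 10 arrays on the same side of the Danube mean, plus the 3 largest and the 3 most uniform of the non-overlapping genes, and up to 2 members per gene list with the lowest p under 0.05. An item that met this rule is not reported here. Members and lists were chosen with earlier results of these data known. Alternatives covered the normalisation, filter, weights, blocks, value table, an ordinary t-test and each array left out. The report does not describe all 38 gene lists. Beside 6.38% higher and 1.16% lower of all genes, the others held 2 higher and 0 lower of 31 histones, 3 (11.1%) and 0 of 27 DNA replication and repair genes, 3 (12%) and 0 of 25 digestive proteases, 2 and 0 of 26 fatty acid genes, 1 (10%) and 0 of 10 chitinases, 1 and 1 of 11 vacuolar ATPase subunits, 0 and 1 of 37 neuropeptides and insulins, and 0 and 0 of 11 hedgehog-related and of 6 insulin and dauer signalling genes.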

Additional observations from a re-analysis of the deposited data

Results flagged for a closer look

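In 77 genes, the 5 Danube arrays and the 10 Elbe and Rhine arrays were each searched for a single array far from its nearest neighbour, which chance alone gives in about 1 in 20 groups. Of 154 groups, 10 had such an array. Rhine replicate 1 was that array in 5 of them. It read 5.00 for *ife-5* (nearest 0.12), 2.47 for *cebp-2* (0.84), 2.16 for *rpa-2* (0.97), 2.05 for *his-12* (0.67), a histone gene with near-identical copies, and -1.40 for *clec-50* (-0.62). Danube replicate 2 read -3.66 for *cebp-2* (nearest -0.27) and -1.13 for T08G3.6 (-0.26). Danube replicate 1 read -2.71 for *math-30* (nearest 0.04) and 1.45 for M01D1.4 (0.34). Elbe replicate 2 read -1.99 for *nhr-256* (nearest -0.84). Rhine replicate 1 and Danube replicate 2 were also the arrays with the widest spread over all genes.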

How the results depend on the processing

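The count of genes with an adjusted p under 0.05, 0 as reported, became 1 with arrays scaled to equal spread (*math-26*). It was 5 when a spot above the lowest grade was required on all 15 arrays, 2 with array quality weights, and 1 by the ordinary t-test (C17F4.7). Higher genes past the thresholds, 341 as reported, numbered 41 with slide series as block, 770 with median centring and no loess, 571 with no spot filter, 209 with the filter on all 15 arrays, 220 with array weights and 194 without both arrays of widest spread, a choice made after seeing the data. Lower genes, 62 as reported, numbered 37 with a single loess curve per array, 386 with no spot filter, 22 with the filter on all 15 arrays, 112 with array weights and 131 in the value table. Genes with all 10 arrays above all Danube arrays, 11 as reported, were 19 with no spot filter, 5 in the value table and 19 without the widest arrays. Those with all 10 below, 2 as reported, were 0 with a single loess curve, 1 with median centring, 12 with no spot filter, 0 in the value table and 5 without the widest arrays. The filters change the number of genes tested (19084 and 2213), and for the other shifts the cause was not tested. With 1 array left out at a time, higher genes ran from 202 (without Danube replicate 2) to 422 (without Danube replicate 1 or 5), lower genes from 51 (without Rhine replicate 2) to 79 (without Danube replicate 5), and non-overlapping genes from 12 to 24 above and from 2 to 7 below, where fewer arrays make separation easier. The direction turned in the slide-blocked fit for *npp-27* (0.32), *nhr-99* (-0.49), *aagr-4* (-0.24), *cyp-34A9* (0.071), *myo-3* (-0.42) and *mrps-10* (-0.060). In the value table it turned for *col-20* (-0.018), *nep-17* (0.26), *kin-15* (0.17), *eif-3.D* (-0.27), *ugt-50* (-0.17) and *mrps-10* (-0.25), and with median centring for M01D1.4 (0.15). The cause was not tested. Replicate numbers did not pair the arrays: deviations of same-numbered arrays correlated at -0.04 to 0.13, over 0.1 in 2 of 15 pairs, and a fit with the replicate block gave 336 higher, 63 lower and 0 adjusted calls.

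River, sediment texture and contamination cannot be told apart with 1 sediment per river, and the slide series was nearly confounded with the Danube group. Genes whose spots were of the lowest grade, 13737 names, were not tested.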
